A study of Mus musculus with 24 samples.

Results

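Small nucleolar RNA (snoRNA) genes are described here in mouse hearts after an ischaemic stroke of the brain. The members were all genes whose platform symbol starts with Snord or Snora followed by a digit, which gave 98 of 24011 named genes. Of these, 64 were Snord genes, which encode C/D box snoRNAs, and 34 were Snora genes, which encode H/ACA box snoRNAs. Hearts came from 8-week-old C57BL/6J mice, a wild-type inbred strain, that had either the middle cerebral artery occluded (MCAO, a model of ischaemic stroke) or a sham operation. They were taken 24 h or 72 h later, which makes 4 groups of 6 arrays: sham 24 h, MCAO 24 h, sham 72 h and MCAO 72 h. Total RNA was labelled as biotinylated cRNA and hybridised to Affymetrix arrays, 1 array per sample. Values are log2 signals, so a difference of 1 is a doubling, and they lay between 2.78 and 13.49 over all genes and arrays.

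A snoRNA is a short nuclear RNA that pairs with ribosomal or spliceosomal RNA and directs a protein complex to one nucleotide. C/D box snoRNAs, named after their UGAUGA (C) and CUGA (D) boxes, guide 2′-O-methylation by fibrillarin. H/ACA box snoRNAs guide pseudouridylation by dyskerin, and a few members of both classes serve in cleavage of the ribosomal precursor instead. In mammals most are cut from introns of host genes, many of which encode ribosomal proteins or translation factors, so 1 transcript can yield both an mRNA and a snoRNA. The C/D box snoRNAs from the introns of Rpl13a are known from cultured cells for a role in metabolic and oxidative stress.

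Sequences of the snoRNAs themselves were not used here, but RefSeq (build GRCm38.p6) holds mature miRNAs whose coordinates lie inside members. All 98 members matched that annotation by gene identifier, and their annotated lengths ran from 45 bases (Snord42a and Snord45b) to 221 bases (Snord17). The miRNA mmu-miR-5121 covers bases 1 to 21 of the 82 bases of Snord33 and is shown because it carries the C box (capitals), which starts at base 7 of Snord33. Both arms of mmu-miR-664 lie in the 113 bases of Snora36b, at bases 50 to 70 and 87 to 108, and are shown with the seed (bases 2 to 8) in capitals.
mmu-miR-5121: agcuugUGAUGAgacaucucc
mmu-miR-664-5p: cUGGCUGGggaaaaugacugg
mmu-miR-664-3p: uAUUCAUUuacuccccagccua
The 3 seeds differ. Snord33 and Snora36b were both among the genes that passed the test at 24 h, as given below. The Mir5121 hairpin has a row of its own on the array, and where the probes of either row lie is not known here.

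Promoters were looked up for the genes that contain members, because host genes of snoRNAs often start at a pyrimidine tract. Rack1 and Wdr43 are shown because every member they contain passed at 24 h, and Snhg16 because it contains the member with the largest change. Each window runs from 40 bases before the annotated start to 20 after it (RefSeq, GRCm38.p6), and capitals mark a tract, defined as a C followed by at least 5 further C or T bases, with its first base within 10 bases of the start.
Rack1, chr11:48800320-48800379, plus strand: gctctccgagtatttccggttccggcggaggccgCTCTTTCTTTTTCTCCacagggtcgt
Wdr43, chr17:71616175-71616234, plus strand: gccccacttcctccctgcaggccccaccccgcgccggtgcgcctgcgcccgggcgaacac
Snhg16, chr11:116671620-116671679, plus strand: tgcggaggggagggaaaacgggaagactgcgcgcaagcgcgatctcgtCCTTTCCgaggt
Rack1 held a tract of 16 bases, Snhg16 one of 7 bases, and Wdr43 none, on the strand of the gene, the only strand searched. Of the 54 host genes with a promoter entry, 19 held such a tract (35.2%), against 21.9% of 27025 genes in the table. The match describes letters in a window only.

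The hearts carried the expected muscle genes: all 10 cardiomyocyte markers were measured, with mean log2 signals from 11.05 (Ckm, muscle creatine kinase) to 13.46 (Actc1, cardiac actin). At 24 h, 2 of the 10 were lower (Myh6 and Ryr2) and none higher, and at 72 h 1 was lower (Ckm). These counts stand beside 11.1% of all genes higher and 10.8% lower at 24 h. At 24 h, 5 of 8 fibroblast markers were lower after MCAO and none was higher. The sum of their log2 signals ran from 61.4 to 65.5 in sham 24 h arrays and from 52.6 to 59.8 in MCAO 24 h arrays, so these groups did not overlap. Of the endothelial markers, 2 of 8 were higher and 1 lower, of the neutrophil markers, 2 of 8 were higher, of the macrophage markers none of 8 passed, and of the red cell markers 1 of 4 measured was higher and 1 lower. In whole hearts, fewer cells of a type and less RNA per cell cannot be told apart, and the part of these shifts in the snoRNA results was not tested. Whether every array stands for its own animal is not stated in the labels. The p-values therefore reflect only how far these arrays differ among themselves.

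A pair of sham arrays stood apart in the snoRNA genes. In sham 24 h replicate 5, 23 of 98 members (23.5%) lay more than 1 log2 unit above the median of their group, against 0.458% of all genes. In sham 72 h replicate 3, 26 members (26.5%) did, against 0.271% of all genes. Most of them were H/ACA genes, 14 in the first array and 17 in the second. A set of 17 members, 11 Snora and 6 Snord, exceeded 1 in both arrays (17.3%, against 0.171% of all genes), and so did 5 of 19 other small RNA genes (Scarna, Rnu, Rn7sk, Rny, Rmrp, Rpph1, Rprl and 5S symbols). Rnu3a (U3), a C/D box snoRNA gene that the symbol rule leaves out, read 5.72 and 7.92 in them, with the other sham arrays between 3.45 and 5.43. Snora31 stood 2.07 above its group in the first and 4.49 in the second, Snora61 2.59 and 3.56, and Snora74a 1.96 and 3.28. Snord13, which guides acetylation of 18S rRNA rather than methylation, stood 2.98 and 3.46 above. Snora31 and Snord13 were also high in other sham arrays. Snora31 stood 2.14 above its group in sham 24 h replicate 3. Snord13 read 10.23 in sham 24 h replicate 2, against 10.21 in replicate 5. The red cell gene Hbb-bt was also high in both, at 7.18 and 6.37, with the other sham arrays between 3.92 and 4.99. It is 1 of 4 red cell markers measured, and the others are not given here for single arrays. In sham 24 h replicate 3, 15 Snord and 3 Snora genes lay more than 1 below their group. In the same array 3 members (Snora31, Snora17 and Snord13) lay more than 1 above. The share of all genes that lay so far below was not counted. Over all genes, MCAO 24 h replicates 5 and 6 deviated most from their group medians, with SDs of 0.371 and 0.416. The sham pair had SDs of 0.289 and 0.216. In these MCAO arrays, 6 and 9 members lay more than 1 below their group, and 0 and 1 more than 1 above. What sets all these arrays apart was not tested. Counts of members below are given with and without the sham pair. Because the pair was picked for high readings of members, leaving it out raises the MCAO minus sham changes of those members.

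**Figure D1:**
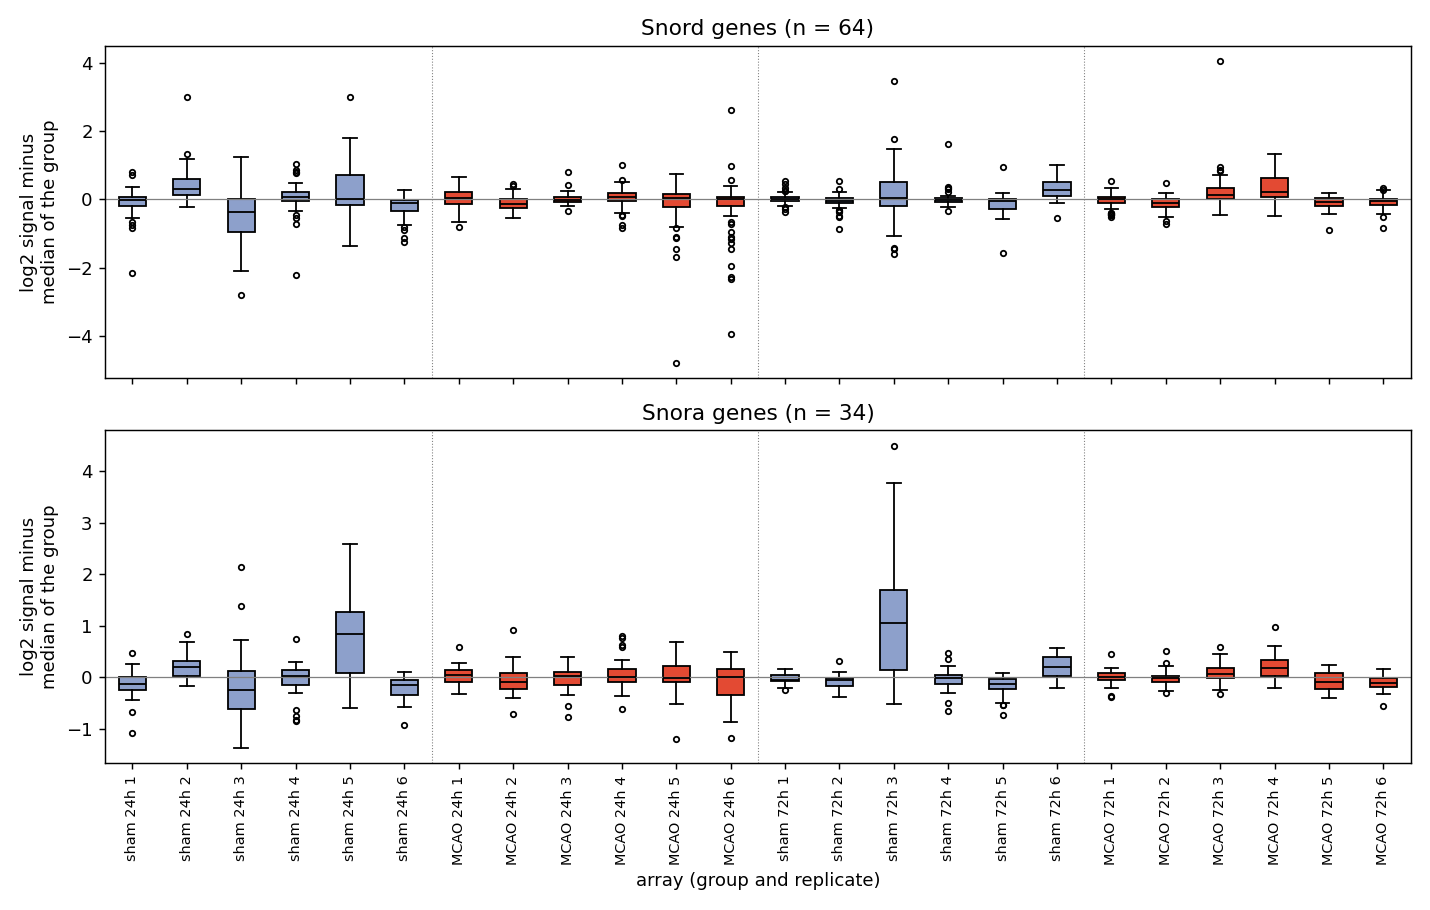
Log2 signal of every member minus the median of its group of 6, for each of the 24 arrays, with Snord genes in the upper panel and Snora genes in the lower. Boxes show the median and quartiles, whiskers reach 1.5 interquartile ranges and points lie beyond them; sham is blue and MCAO red. The Snora boxes of sham 24h 5 and sham 72h 3 sit highest, with medians of 0.84 and 1.06, and the Snord box of sham 24h 3 sits lowest, with a median of -0.36.

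At 24 h the snoRNA genes that changed were all higher after MCAO. Of the 98 members, 26 were higher and none was lower (limma, Benjamini-Hochberg adjusted p under 0.05 over 24011 genes), where 11.1% of all named genes were higher and 10.8% lower. The C/D box class held most of them: 22 of 64 Snord genes (34.4%) and 4 of 34 Snora genes (11.8%) were higher. The median log2 change was 0.36 over the Snord genes and 0.15 over the Snora genes, where the median over all named genes was 0.01. Changes ran from -0.94 (Snord14e, which did not pass) to 1.91 (Snord1b), and 76 of 98 were above 0. At an unadjusted p under 0.05 the count was 40 of 98 members, beside 8320 of all 24011 genes.

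The median signal over each class was also taken in each array. It is another measure than the median of the changes, so the sizes need not match. The median over the 64 Snord genes was 5.74 ± 0.34 (SD, n = 6) in sham 24 h arrays, with a lowest value of 5.14 and a highest of 6.15. In MCAO 24 h arrays it was 6.47 ± 0.09 (SD, n = 6), from 6.39 to 6.63, so every MCAO array lay above every sham array. The Snora median was 5.42 ± 0.44 in sham 24 h and 5.58 ± 0.12 in MCAO 24 h arrays (SD, n = 6), and these groups overlapped. Between single members the separation was also uneven: at 24 h, 11 members (10 Snord and 1 Snora) had all 6 MCAO arrays above all 6 sham arrays, and none the reverse. Over all genes 2.88% were so separated upwards and 2.65% downwards.

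Without the sham arrays that stood apart, 37 members were higher at 24 h and none lower, with 9.3% of all genes higher and 9.04% lower. These were 27 Snord and 10 Snora genes, and they included 25 of the 26 given above, all but Snord96a. The Snora median change was then 0.29. The pair was picked because many members read high in it, so leaving it out of the sham groups raises the changes of those members. Sham 24 h replicate 3, in which 15 Snord genes read low, was kept in that fit. Without that array alone, 23 members were higher, all among the 26, and the share of all genes was not counted. With the 24 h arrays fitted alone, 18 members were higher, all of them among the 26, with 4.77% of all genes higher and 4.36% lower. The difference between the classes was not tested.

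Among the C/D box genes, Snord1b changed most. It lies in Snhg16, a long noncoding RNA gene. Its lowest, median and highest log2 signals were 4.50, 5.73 and 6.79 in sham 24 h arrays, and 7.15, 7.68 and 7.84 in MCAO 24 h arrays. The groups did not overlap, and the change of 1.91 (SE 0.32), a 3.75-fold rise, passed the test (limma adjusted p = 0.00022). In sham 72 h arrays the values were 5.18, 5.93 and 6.94, and in MCAO 72 h arrays 6.34, 6.78 and 7.66, which overlap.

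Snord12, from the noncoding host Zfas1, had values of 4.38, 5.09 and 5.88 (lowest, median, highest) in sham 24 h and 4.65, 6.91 and 7.48 in MCAO 24 h arrays. A single MCAO array, replicate 6, fell among the sham arrays, and the other 5 lay above them all. The change was 1.44 (SE 0.35, limma adjusted p = 0.00576).

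Snord42b, in the ribosomal protein gene Rpl23a, had values of 3.60, 4.72 and 6.05 in sham 24 h and 5.85, 6.01 and 6.36 in MCAO 24 h arrays. Only the highest sham array reached into the MCAO range. It rose by 1.35 (SE 0.26, limma adjusted p = 0.000852). Of the 3 members in Rpl23a, Snord42b alone passed, and the lowest change among them was -0.15.

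Snord11 lies in Nop58, which encodes a core protein of C/D box particles. Its sham 24 h values were 4.88, 5.62 and 5.90, and its MCAO 24 h values 6.59, 6.75 and 6.88, with a clear gap between the groups. The change was 1.17 (SE 0.15) and had the smallest adjusted p of all members (limma, 1.11e-05). Nop58 itself changed by 0.03.

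Snord35a, one of the Rpl13a snoRNAs, had values of 6.13, 7.33 and 7.77 in sham 24 h and 7.90, 8.19 and 8.42 in MCAO 24 h arrays. The groups did not overlap at 24 h, and the change was 1.10 (SE 0.32, limma adjusted p = 0.0164). At 72 h the sham values were 5.67, 7.28 and 8.03 and the MCAO values 7.71, 8.02 and 9.11, which overlap. Snord66, in the translation factor gene Eif4g1, ran from 5.70 to 7.80 in sham 24 h and from 7.28 to 7.90 in MCAO 24 h arrays. These ranges overlap, and the change of 1.05 (SE 0.28) passed (limma adjusted p = 0.00977).

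The H/ACA box genes that passed at 24 h were Snora81, Snora62, Snora75 and Snora36b. Snora81, in the translation factor gene Eif4a2, had values of 4.41, 5.005 and 5.75 in sham 24 h and 6.09, 6.50 and 6.70 in MCAO 24 h arrays. It was the H/ACA gene whose groups did not overlap, with a change of 1.43 (SE 0.21, limma adjusted p = 5.82e-05). Snora62, in the ribosomal protein gene Rpsa, ran from 5.27 to 6.57 in sham 24 h and from 6.46 to 7.74 in MCAO 24 h arrays, which overlap slightly. Its change was 0.96 (SE 0.21, limma adjusted p = 0.00299). Snora75, in the nucleolin gene Ncl, changed by 0.84 (SE 0.19, limma adjusted p = 0.00275).

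**Figure D2:**
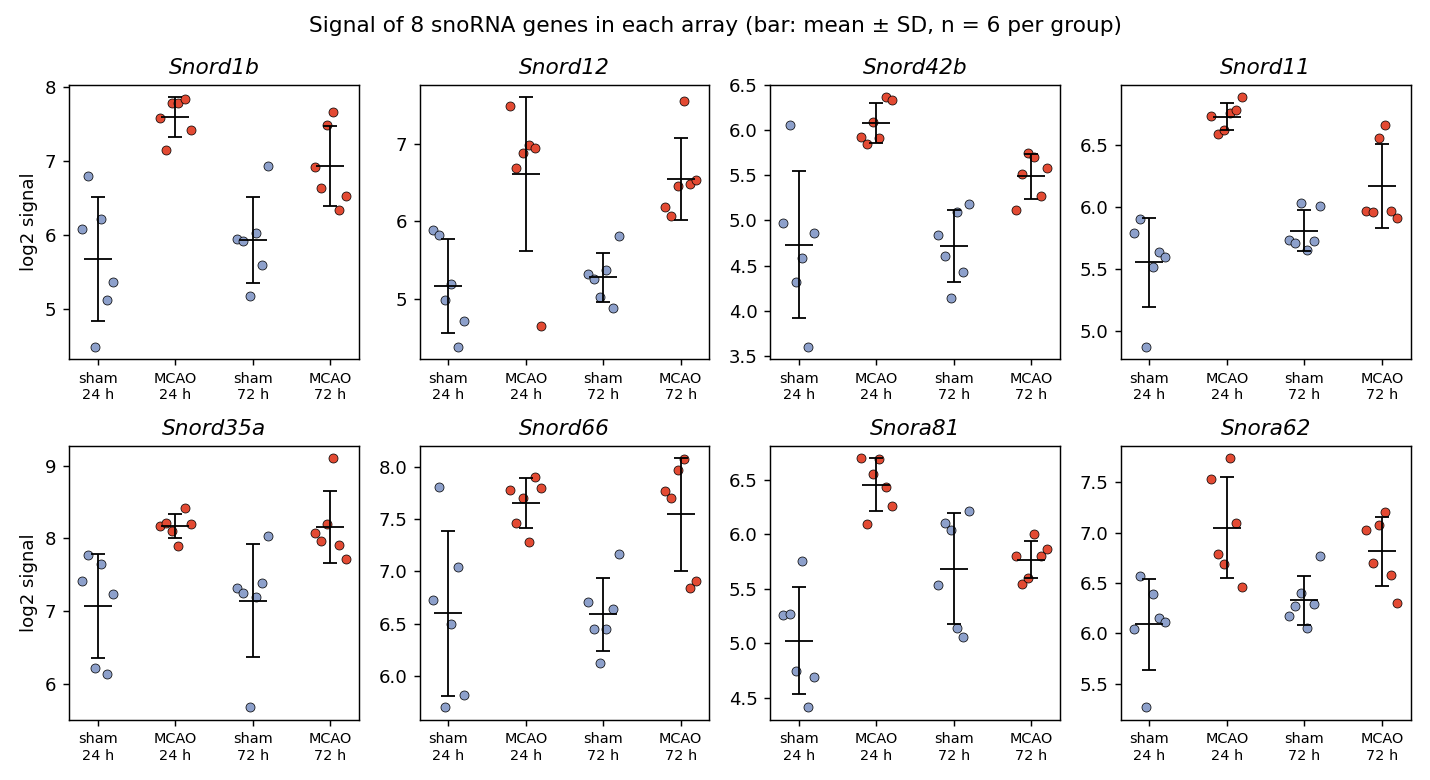
Log2 signal of 8 members with large changes at 24 h, with 1 point per array and the mean ± SD (n = 6) of each group as bars; sham is blue and MCAO red, and the panels have their own axes. Snord1b, Snord11, Snord35a and Snora81 show no overlap at 24 h, Snord12 has 1 low MCAO 24 h array at 4.65, and Snora81 has means of 5.68 and 5.77 at 72 h.

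The other 17 members that passed changed by 0.94 or less. Among them, Snord14a, in Rps13, rose by 0.94 (SE 0.16, limma adjusted p = 0.000242), from sham 24 h values of 3.63 to 4.03 to MCAO 24 h values of 4.10 to 5.22. Snord35b changed by 0.84, and Snord95, in Rack1, by 0.82. At the low end, Snord96a changed by 0.21 and Snora36b by 0.28. Snord33 and Snord100, both near the top of the signal range, changed by 0.58 (limma adjusted p = 0.0126) and by 0.41 (limma adjusted p = 0.0346). The Mir5121 row, whose mature sequence is the start of Snord33, changed by 0.58 (SE 0.14, limma adjusted p = 0.00617).

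The U14 copies, which act in 18S rRNA processing, differed: Snord14a rose, as given above, while Snord14e had the lowest change of all members, -0.94 (SE 0.38, limma adjusted p = 0.0764). Snord14e ran from 6.32 to 8.68 in sham 24 h and from 5.90 to 6.73 in MCAO 24 h arrays, which overlap. Without sham 24 h replicate 1 it passed as lower, with a change of -1.13 (limma adjusted p = 0.0398), and without the sham arrays that stood apart its change was -0.66 and did not pass. Snord118 (U8), needed for the large subunit rRNAs, had a change of 0.32 (SE 0.15, limma adjusted p = 0.122), and passed without those sham arrays (0.47, limma adjusted p = 0.0107). Snora73a and Snora73b (U17), which act on 18S rRNA, had changes of -0.27 and -0.02, and without those arrays of -0.13 and 0.21; none of these passed. Snord13 had a change of -0.66 (limma adjusted p = 0.677) with sham 24 h values from 5.03 to 10.23, and a change of -0.11 without those arrays.

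Among the 4 brightest rows of each class, changes at 24 h ran from -0.20 to 0.58 in the fit of all arrays. Snord32a, with a mean log2 signal of 12.05 over all arrays, ran from 11.18 to 12.25 in sham 24 h and from 12.04 to 12.42 in MCAO 24 h arrays. Snord22 ran from 9.73 to 11.86 and from 10.99 to 11.22, a change of 0.13, or 0.32 without the sham arrays that stood apart. Of the H/ACA genes, Snora34 (0.20), Snora21 (0.40), Snora23 (0.14) and Snora5c (-0.20) did not pass. Without the sham arrays that stood apart, Snora21 (0.55, limma adjusted p = 0.00684) and Snora23 (0.35, limma adjusted p = 0.0447) passed, and the changes of Snora34 and Snora5c were 0.44 and 0.14. Snora5c ran from 7.97 to 10.79 in sham 24 h and from 8.38 to 9.33 in MCAO 24 h arrays, so the spread lay in the sham group. Near the lower end of the array, Snord19 rose from 3.06 to 3.42 in sham 24 h to 3.40 to 3.75 in MCAO 24 h arrays, a change of 0.34. Snord64 (0.03), Snora20 (0.07) and Snora70 (-0.02) did not pass.

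Some members lay near the level of genes with little signal, taken as the 95th percentile of the mean signal of 1370 olfactory and vomeronasal receptor genes, 3.96. This level was chosen with the data in view. The mean over all arrays was at or under it for 19 members, among them Snora36b, Snord19, Snord37, Snord43, Snord85, Snord92 and Snord96a, which passed at 24 h. These 7 are 36.8% of the 19. Of all 10484 named genes at or under this level, 8.29% were higher at 24 h and 5.51% lower, so calls also fell on rows with little signal.

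Among other small RNA genes measured the same way, 96 of 544 miRNA hairpin genes (17.6%) were higher at 24 h and 47 lower, or 78 and 37 without the sham arrays that stood apart. Of all named genes, 11.1% were higher and 10.8% lower with all arrays, and 9.3% and 9.04% without those sham arrays. Of the 19 other small RNA genes named above, none was higher and 1 was lower with all arrays, and 1 was higher and none lower without those sham arrays.

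At 72 h no member passed in the fit of all arrays. The test called 0 of 98 in either direction (limma, fit of all arrays), where 1.17% of all named genes were higher and 1.19% lower. At an unadjusted p under 0.05 the count was 15, of which 14 were Snord genes, beside 2627 of all 24011 genes. The median change was 0.12 over the Snord genes and -0.03 over the Snora genes, and 61 of 98 changes were above 0. With dim genes left out, which kept 76 of the 98 members, the median over the brighter Snord genes that remained was 0.25. The Snord median was 5.88 ± 0.15 (SD, n = 6) in sham 72 h arrays and 6.27 ± 0.31 (SD, n = 6) in MCAO 72 h arrays. These ran from 5.68 to 6.14 and from 5.94 to 6.65, and so overlapped. A total of 3 members, Snord12, Snord53 and Snord64, had all MCAO 72 h arrays above all sham 72 h arrays, and none the reverse, where 1.77% of all genes were separated in each direction.

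The lowest change at 72 h was again that of Snord14e, at -0.74 (SE 0.38, limma adjusted p = 0.508), or -0.45 without sham 72 h replicate 3. Its sham 72 h values ran from 6.19 to 8.48 and its MCAO 72 h values from 5.68 to 7.16. Snora73b (-0.67) and Snora73a (-0.53) came next among those of smallest p; without sham 72 h replicate 3 these changes were -0.03 and 0.04.

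The count at 72 h depended on which arrays set the spread. With the 72 h arrays fitted alone, 9 Snord genes were higher and no member was lower, with 3.06% of all genes higher and 2.81% lower. They were Snord12, Snord33, Snord42b, Snord53, Snord66, Snord95, Snord99, Snord100 and Snord110, of which 7 had also passed at 24 h. Snord12 had the largest change of them, at 1.27. Its values were 4.88, 5.29 and 5.81 (lowest, median, highest) in sham 72 h and 6.07, 6.47 and 7.55 in MCAO 72 h arrays, with no overlap. Its limma adjusted p was 0.0574 in the fit of all arrays and 0.00483 in the 72 h arrays alone. Snord53, in Wdr43, ran from 4.46 to 4.70 in sham 72 h and from 4.73 to 4.95 in MCAO 72 h arrays. Its change was 0.25, with a limma adjusted p of 0.131 in all arrays and 0.00901 in the 72 h arrays alone. Without the sham arrays that stood apart, the count in the other arrays was 1, Snord17 (limma), with 1.04% of all genes higher and 1.1% lower. The Snora median was then 0.12.

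**Figure D3:**
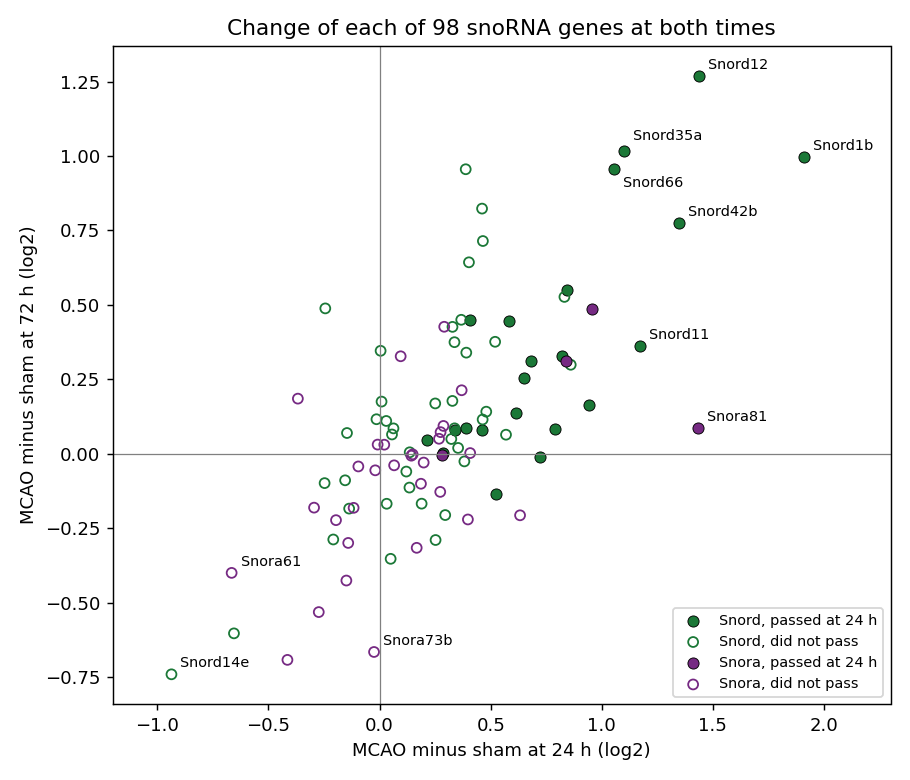
Log2 change, MCAO minus sham, at 24 h (horizontal) and at 72 h (vertical), with 1 point per member; the 64 Snord genes are green, the 34 Snora genes purple, and filled points passed at 24 h. The groups behind the axes share no array. Snord1b, Snord12, Snord35a, Snord66 and Snord42b lie far up on both axes, and Snora81 lies at 1.43 and 0.09.

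Of the 26 members that passed at 24 h, 23 had a change above 0 at 72 h. The difference between the effects at the 2 times was tested as an interaction. It passed for 3 members, all with a smaller effect at 72 h, where 0.8% of all genes passed in that direction and 0.991% in the other. They were Snora81 (-1.35, SE 0.29, limma adjusted p = 0.0228), Snord11 (-0.81, SE 0.21, limma adjusted p = 0.0441) and Snord37 (-0.73, SE 0.16, limma adjusted p = 0.021). Snora81 ran from 5.06 to 6.22 in sham 72 h and from 5.54 to 6.00 in MCAO 72 h arrays, a change of 0.09 (SE 0.21). Snord37, in the elongation factor gene Eef2, ran from 3.35 to 3.65 in sham 24 h and from 3.98 to 4.63 in MCAO 24 h arrays, and had a change of -0.01 at 72 h. Without the sham arrays that stood apart, 1 member passed; Snora81 (limma adjusted p = 0.0501) and Snord11 (limma adjusted p = 0.0771) did not. Without MCAO 24 h replicate 1, 8 passed.

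Within the operations, 0 of 98 members passed between sham 72 h and sham 24 h (limma), where 0.0208% of all genes were called. At an unadjusted p under 0.05 there were 3 members, beside 885 of all 24011 genes. The smallest p among members was that of Snora81, whose sham values were 0.66 higher at 72 h (limma adjusted p = 0.905). Between the MCAO groups, 11 members were lower at 72 h than at 24 h and none was higher, with 5.36% of all genes lower and 5.04% higher. They were Snord11, Snord14a, Snord19, Snord37, Snord53, Snord85, Snord88c, Snord92, Snord95, Snora75 and Snora81. Snord14a fell by 0.84 (SE 0.16, limma adjusted p = 0.00279), from a mean of 4.77 to 3.93. These 11 were chosen by that test from arrays that the comparison at 24 h also used, so the counts are not separate evidence. Snord1b, Snord12, Snord35a, Snord42b and Snord66 were not among them.

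Host genes passed about as often as all genes did. By coordinates, 89 members lay within exactly 1 other gene, 6 within several and 3 (Snord13, Snord89 and Snord118) within none; the strand of the members was not checked. Of these, 71 had a measured host, in 51 different genes, of which 5 were higher (9.8%) and 7 lower (13.7%) at 24 h, beside 11.1% and 10.8% of all genes. Without the sham arrays that stood apart these were 6 and 8, and no host passed at 72 h. The median change of the 51 hosts at 24 h was 0.03. Of the 26 members higher at 24 h, 18 had a measured host, and the host was also higher for 2 (11.1%, the share over all genes), Snord73a (Rps3a1, 0.47) and Snord88c (2410002F23Rik, 0.56). Without those sham arrays, 26 of the members called had a measured host, which was higher for 4 and lower for 3. In 17 of the 18 pairs the member changed more than its host, with medians of 0.76 and 0.18. Snhg16 changed by -0.11 where Snord1b rose by 1.91, Eif4a2 by 0.02 where Snora81 rose by 1.43, and Zfas1 by 0.14 where Snord12 rose by 1.44. The members of these pairs were chosen for their own change, so the gap is a description. Over all 71 pairs, the member changed more than its host in 43. Across all 71 pairs, Pearson's r was 0.03 and Spearman's rho -0.11; pairs share arrays, and some share a host. A probe inside a snoRNA can also lie in unspliced host transcript, and the array does not tell these apart.

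**Figure D4:**
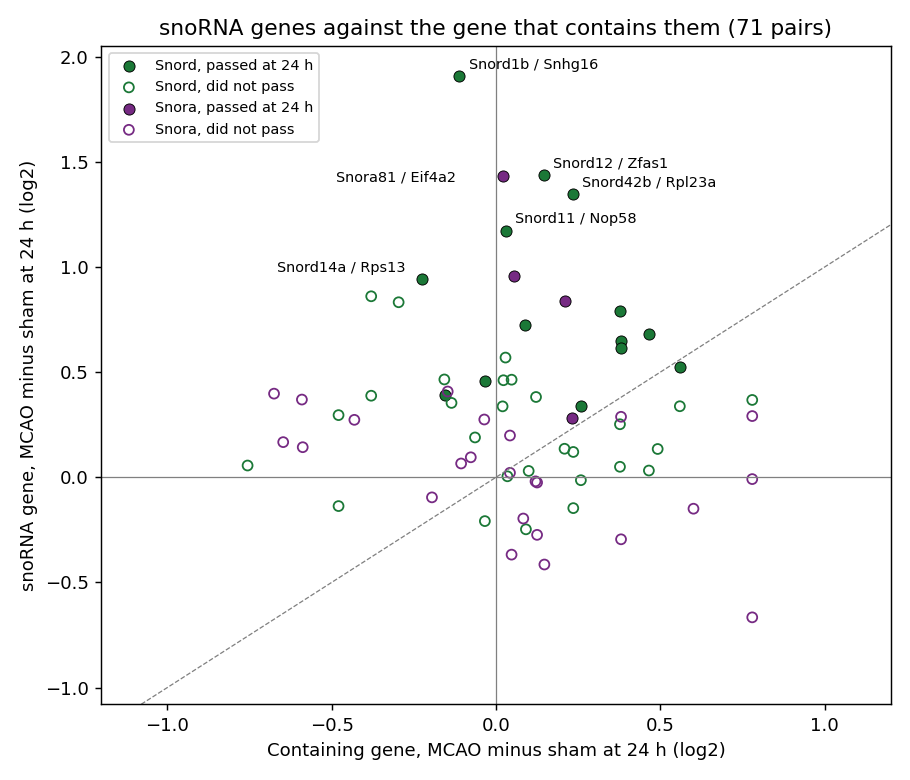
Log2 change at 24 h of each member (vertical) against that of the gene containing it (horizontal), for 71 pairs; colours and filling are as for the plot of both times, and the dashed line marks equal change. Of the 18 filled points, chosen for their own change, 17 lie above the line, with Snord1b at 1.91 where Snhg16 is at -0.11. Over all 71 pairs the member changed more than its host in 43.

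Members of 1 host did not always move together. Of the 20 genes that contain several members, all members passed at 24 h in 2, some in 11 and none in 7; without the sham arrays that stood apart these were 1, 14 and 5, and Snord96a in Rack1 did not pass. Wdr43, which encodes a protein of the small subunit processome, holds Snord53 and Snord92, with changes of 0.65 and 0.61. Snord92 ran from 3.47 to 3.90 in sham 24 h and from 3.96 to 4.64 in MCAO 24 h arrays, without overlap. Rack1, a ribosomal scaffold gene, holds Snord95 (0.82) and Snord96a (0.21). In Rpl13a, Snord33 and Snord35a passed while Snord32a (0.39, limma adjusted p = 0.0611) and Snord34 (0.40, limma adjusted p = 0.404) did not; Rpl13a itself was not measured. Snord34 overlapped widely, from 4.36 to 6.25 in sham 24 h and from 4.52 to 6.44 in MCAO 24 h arrays. The 4 members of Snhg12 had changes from -0.67 to 0.37, and none passed. By kind of host, 11 of 33 members in ribosomal protein genes, with Rack1 counted among these genes, were higher at 24 h (33.3%). So were 12 of 37 in other coding genes (32.4%) and 3 of 19 in long noncoding genes (15.8%). Without those sham arrays these counts were 13, 17 and 5.

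The proteins that bind snoRNAs moved in both directions at 24 h. Of 8 core protein genes of the 2 particles, 7 were measured; 1 was higher and 2 were lower at 24 h, and none passed at 72 h. Dkc1, the pseudouridine synthase dyskerin, had values of 6.20, 6.27 and 6.50 (lowest, median, highest) in sham 24 h and 5.62, 5.95 and 6.14 in MCAO 24 h arrays. The groups did not overlap, and it fell by 0.37 (SE 0.09, limma adjusted p = 0.0062). Nop56, a scaffold of C/D box particles, fell by 0.38 (SE 0.11, limma adjusted p = 0.0192), and the H/ACA protein gene Nop10 rose by 0.20 (SE 0.07, limma adjusted p = 0.0328). Fbl, the methyltransferase fibrillarin, had a change of 0.60 (SE 0.25, limma adjusted p = 0.0912) and did not pass. Nop58 (0.03), the H/ACA protein gene Gar1 (-0.03) and Nhp2 (0.17) did not pass either.

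Of the genes of particle assembly, 1 of 15 measured was higher at 24 h (Wrap53, 0.30, which directs RNAs to Cajal bodies) and none lower. At 72 h Ruvbl2, an ATPase of the assembly complex, was lower by 0.40 on the log2 scale. Of 39 measured genes of ribosome biogenesis, 7 were higher at 24 h and none lower, with a median change of 0.15, and none passed at 72 h. They included Nop14 (0.64, limma adjusted p = 0.00363), a small subunit processome protein, and Ddx21 (0.43, limma adjusted p = 0.0113), a nucleolar helicase. Of 21 measured genes of RNA turnover, which includes the exosome that trims snoRNA ends, 4 were higher at 24 h: Exosc1 (0.57), Parn (0.53), Exosc2 (0.38) and Smg1 (0.34). Of 22 long noncoding host genes, 5 were higher and 3 lower at 24 h, among them Snhg12 (0.78) and Snhg9 (-0.81), and none passed at 72 h. The shares in these lists stand beside 11.1% of all genes higher and 10.8% lower at 24 h. Without the sham arrays that stood apart, the higher and lower counts at 24 h were 0 and 2 for the core proteins, 3 and 0 for assembly, 6 and 0 for ribosome biogenesis, 4 and 1 for RNA turnover, and 6 and 3 for the long noncoding hosts.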

How the data were processed

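The deposited values were log2 array signals per gene identifier, from biotinylated cRNA on Affymetrix arrays per the labels' protocols. The 24 columns have nearly equal sorted values (largest difference 0.00191), so the authors had normalised them between arrays; the sources used here state no summarisation, probe set or build. Descriptions of the 72 h samples name 24 h, and the titles and time labels were followed. Of 24973 identifiers, 24015 had a symbol; where a symbol had more than 1 identifier (4 symbols), the brightest on average stood for the gene.

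Group means of 4 groups were fitted over 24 arrays with limma 3.58.1 (R 4.3.3), with 20 residual degrees of freedom, and tested for 5 contrasts with Benjamini-Hochberg adjustment over 24011 genes. Hosts, miRNAs and promoters came from RefSeq tables (GRCm38.p6). Replicate numbers were not used to pair arrays in the main fit. Of 12 same-numbered pairs, 1 correlated above 0.1 in deviations from their group. Pairs of unlike number were not compared, so this does not decide whether the numbers pair arrays. No batch is given in the labels. Array number limits precision. Named members were up to 12 per direction and time with adjusted p under 0.05, or those of smallest p where fewer than 5 passed, 3 per direction in the other contrasts, the brightest 4 and dimmest 2 of each class, and the hosts. A gene outside this rule that the text names was chosen after its values were seen. The members and lists were chosen with earlier results of these data known. There were 11 alternatives, with 2 more chosen after seeing the data.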

Additional observations from a re-analysis of the deposited data

Results flagged for a closer look

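In a check of 164 groups of 6 arrays, taken over the named members and the class medians, 21 held an array far from its others; chance flags about 5% of such groups. Sham 72 h replicate 3 was far above its group in Snora61 (7.04, next highest 3.65), Snora73b (8.79, next 5.32), Snora73a (7.27, next 3.90), Snord71 (8.47, next 7.29), Snora34 (11.23, next 10.18), Snora23 (10.22, next 9.18), Snora5c (10.66, next 9.62) and the Snora median (7.16, next 5.49). It was far below its group in Snord35a (5.67, next 7.19). In sham 24 h replicate 5, Snora73a was high (4.73, next 4.04).

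In MCAO 24 h replicate 6, Snord12 (4.65, next lowest 6.69), Snord110 (5.45, next 9.25), Snord123 (4.32, next 5.83) and Snora34 (8.95, next 10.02) were low. MCAO 72 h replicate 4 was high in Snord12 (7.55, next 6.53) and Snord35a (9.11, next 8.20). Sham 24 h replicate 3 was low in Snord65 (4.73, next 6.42) and high in Snora70 (3.16, next 3.07). Single flags fell on Snora35 in sham 72 h replicate 2 (3.74, next 3.92), Snora78 in MCAO 24 h replicate 3 (4.68, next 4.34) and Snora70 in MCAO 24 h replicate 2 (3.28, next 3.06).

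The effect of MCAO differed between 72 h and 24 h, by the interaction test, for Snora81 (-1.35), Snord11 (-0.81) and Snord37 (-0.73).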

How the results depend on the processing

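Of 26 members higher at 24 h, 15 passed under every alternative that tested them and 20 with each single array left out; with single arrays left out the count ran from 23 to 31, and with array weights it was 17. A single lower member, Snord14e, passed with the replicate number as a block and without sham 24 h replicate 1 or sham 72 h replicate 3 (range 0 to 1). With the replicate block 26 members were higher at 24 h, 0 at 72 h, 2 differed between the times and 9 between the MCAO groups. The Snora median at 24 h, 0.15, was 0.29 without the pair of sham arrays that stood apart, 0.33 without 5 arrays (these, sham 24 h replicate 3 and MCAO 24 h replicates 5 and 6), and 0.038 to 0.29 with single arrays left out.

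At 72 h the count of 0 higher members became 4 with dim genes left out, 13 with array weights, 9 with the compared groups alone, 2 without MCAO 24 h replicates 5 and 6, 1 without the pair of sham arrays, 7 without the 5 arrays, and 0 to 4 with single arrays left out (4 without sham 72 h replicate 6). The Snord median at 72 h, 0.12, was 0.25 with dim genes left out, over the brighter Snord genes that remained. The Snora median at 72 h, -0.03, was 0.12 without the pair of sham arrays and without the 5 arrays, and -0.086 to 0.12 with single arrays left out. The 3 members that differed between the times became 5 without MCAO 24 h replicates 5 and 6 (where Snord11 did not pass), 1 without the sham pair, and 2 to 8 with single arrays left out. The 11 between the MCAO groups became 6 with dim genes left out, 7 with array weights, and 7 to 14 with single arrays left out (7 without MCAO 72 h replicate 2 or replicate 6). Without the sham pair the change of 10 members turned sign at 24 h and of 25 at 72 h, none of them called at that time with all arrays. Of the members listed by size or p, the direction turned for Snora30 (0.045) and Snord61 (0.039) at 24 h without MCAO 24 h replicates 5 and 6, and for Snora73a at 72 h (0.042) without sham 72 h replicate 3, without the sham pair and without the 5 arrays; with single arrays left out Snora73a ran from -0.68 to 0.042. The causes were not tested. With dim genes left out fewer genes were tested, among them 76 members, and the reduced fits held fewer arrays.

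Signal near that of unexpressed receptor genes limits 19 members, and probe overlap between near-identical copies, such as Snora73a and Snora73b, was not checked.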
